A study of Mus musculus with 15 samples.

Results

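The subunits of oxidative phosphorylation were examined in CT26 cells, a mouse colon carcinoma line, in which the arginine methyltransferase PRMT1 was knocked down or inhibited. Members were all genes whose symbol begins with the name of a subunit family of complexes I to V, in either genome, and 111 of the 34432 genes listed qualified: 98 in the nucleus and all 13 protein-coding genes of the mitochondrial DNA (mtDNA). Of these, 100 are annotated as protein coding, 1 of them a second entry for Atp5o, and 11 as processed pseudogenes. By complex, 43 of the remaining members belong to complex I, 4 to complex II, 10 to complex III, 23 to complex IV and 19 to complex V. Complexes I to IV carry electrons and complex V is the ATP synthase, with Ndufa4 and Ndufa4l2 counted under complex IV.

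The knockdown experiment held 3 shControl and 3 shPrmt1 libraries. The shPrmt1 cells carried a lentiviral hairpin against Prmt1 that doxycycline (DOX, a tetracycline antibiotic) switches on, and were given DOX for 3 days. The labels do not say whether shControl cells were given DOX, so the hairpin and DOX cannot be told apart. The inhibitor experiment held 3 libraries each of wild-type CT26 cells given vehicle, MS023 or GSK3368715, 2 inhibitors of type I arginine methyltransferases, at 6 µM for 48 hours. The labels name the replicates of a group by number and do not say that they came from separate cultures, so p-values measure the spread between libraries, which may be technical.

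Oxidative phosphorylation couples the passage of electrons from NADH and succinate to oxygen with the pumping of protons and the synthesis of ATP. Complex II is encoded in the nucleus alone, whereas complexes I, III, IV and V combine nuclear subunits, imported after translation in the cytosol, with subunits translated inside the organelle. The mtDNA is transcribed from both strands as long precursors that are cut at tRNAs, so its mRNAs are made together and their levels then depend on processing and decay. All but 1 of its mRNAs lie on the heavy-strand transcript, and mt-Nd6 is the only mRNA of the light-strand transcript. It is also known for carrying little or no poly(A) tail.

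Some sequences set limits on the values below. The genes mt-Atp8 and mt-Atp6, both subunits of complex V, share 43 bases of the mtDNA and lie on the same mRNA, so reads in the shared stretch (capitals, with 20 bases on either side, chrM:7907-7989 of mm10, plus strand) belong to both.
mt-Atp8/mt-Atp6: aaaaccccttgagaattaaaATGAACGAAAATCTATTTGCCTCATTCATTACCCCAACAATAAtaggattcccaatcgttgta
A nuclear copy of mt-Nd3, listed as Gm28438 on chromosome 1, has 1 mismatch in the 345 bases aligned, a T3C substitution counted from 1 at the first base of mt-Nd3 (capital), so reads past this base cannot be told apart. The copy was read from chr1:24613092-24613119, minus strand, and the member from chrM:9459-9486, plus strand, of mm10.
mt-Nd3: atTaacctgtacactgttatcttcatta
Gm28438: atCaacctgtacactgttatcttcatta

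In the deposited values Gm28438 held 66.2% of the normalized counts of the pair in the knockdown experiment and 73.8% in the inhibitor experiment, more than mt-Nd3 itself. For mt-Nd4 (copy Gm28439) the copy held 9.67% and 10.1%, and for mt-Atp6 (copy Gm10925) 1.31% and 3.46%. Atp5g2, 1 of the 3 nuclear genes for subunit c of the ATP synthase ring, has a copy, Gm10175, that is 100% identical over its whole transcript and held 86.8% and 88.7%. The split of reads between each of these genes and its copy is uncertain, and their values are therefore given with the copy added as well. Across all members, 47 had a transcript at least 95% identical over at least 30% of its length elsewhere in the annotation.

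Reads assigned to genes numbered 17284091 to 29233738 per library in the knockdown experiment and 40119305 to 93697833 in the inhibitor experiment. Prmt1 had 5601, 5717 and 5620 normalized counts (reads divided by the size factor of the library) in shControl libraries and 669, 761 and 683 in shPrmt1 libraries, 12.5% of the control mean. Its mean was 94.97% of the vehicle mean with MS023 and 99.2% with GSK3368715. The label of colon tumor cells was checked against epithelial markers: Krt18 (378 to 1414) and Krt20 (153 to 447 normalized counts) were present in all 15 libraries, Epcam and Cldn7 were at 0 and Cdh1 reached 2.29. The 8 epithelial markers summed to 541 to 1851 and 5 mesenchymal markers (Vim, Fn1, Col1a1, Zeb1, Cdh2) to 80704 to 320378 per library. Of these, Krt18 was called lower and Fn1 and Col1a1 higher in the knockdown, Krt8 and Krt18 higher and Col1a1 lower with MS023, and Krt18 higher with GSK3368715, and their part in the results was not tested. Markers of immune cells summed to 1.11 to 30.6 and those of endothelium to 2.42 to 37.4 normalized counts per library. Cd3e was at 0 throughout.

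The 2 genomes took different shares of the libraries. The 13 mtDNA genes took 2.85%, 2.84% and 2.58% of the reads on genes in shControl libraries and 2.65%, 2.95% and 2.83% in shPrmt1 libraries, and the groups overlapped. In the inhibitor experiment they took 2.76%, 1.37% and 2.68% in vehicle, 2.62%, 2.25% and 1.99% with MS023, and 2.55%, 2.02% and 1.07% with GSK3368715. Vehicle replicate 2 and GSK3368715 replicate 3 thus stood apart with low shares, while the nuclear members took 0.838% to 0.902% in all 9 libraries, those 2 included. These libraries bear on every mtDNA value of the inhibitor experiment. Medians, mt-Nd6 and the mtDNA genes that were called without them are therefore given both ways, and shares and sums by library where they turn on them. In bulk RNA, less mtDNA transcript per cell, fewer cells rich in it and less capture of it in library preparation cannot be told apart. The paper names a kit for mRNA libraries (Kapa mRNAseq Hyper prep), and a part of poly(A) tails in the mtDNA values was not tested.

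**Figure D1:**
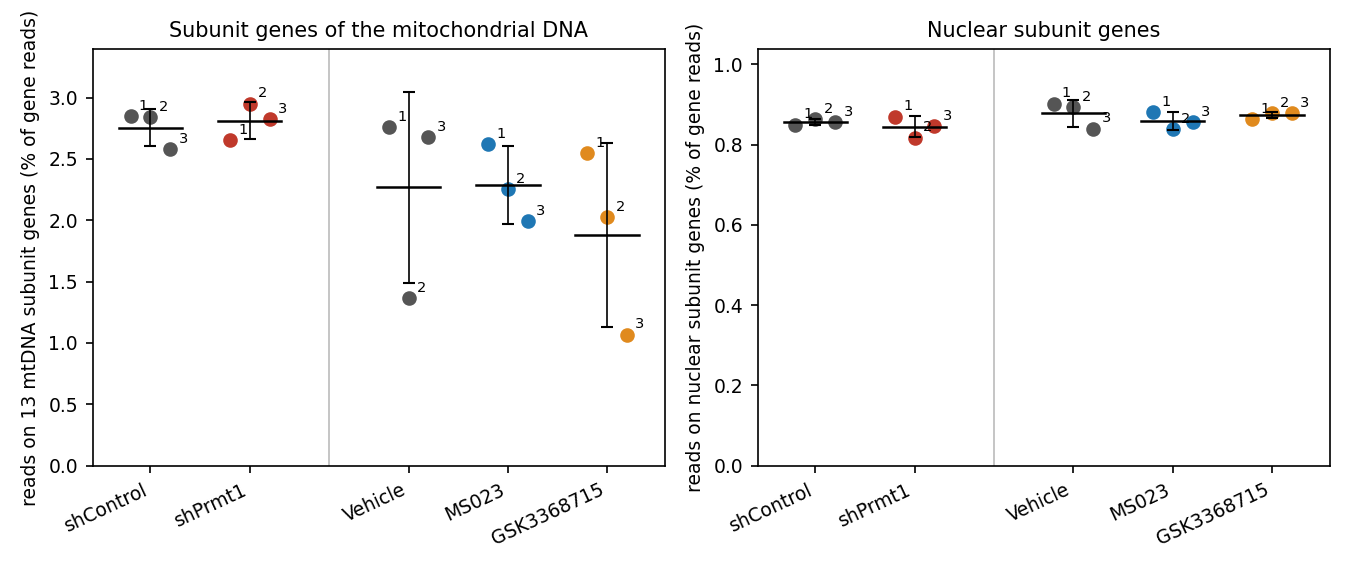
Share of the reads on genes that fell on the 13 mtDNA subunit genes (left) and on the nuclear subunit genes (right), in percent, for each of the 15 libraries. Points are libraries numbered by replicate, lines are means and bars the SD (n = 3). Vehicle replicate 2 (1.37%) and GSK3368715 replicate 3 (1.07%) lie below the other libraries on the left and not on the right.

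Per kilobase of exon, most mtDNA genes were far above the nuclear ones. Exon length was taken over all annotated exons of a gene. It can exceed the length of a single transcript and so understate nuclear levels, unevenly between genes. The gap between the genomes and the order of nuclear members depend on this measure. In vehicle the highest levels were those of mt-Atp8 (416944 normalized counts per kb) and mt-Atp6 (300015), followed by mt-Co1 (186281), the catalytic subunit of complex IV. The lowest mtDNA gene was mt-Nd6 (17086), just under Atp5b (20175), the catalytic beta subunit of the ATP synthase and the highest nuclear member. Next among nuclear members came Cox8a (14739), Cox6b1 (13925) and Atp5a1 (11736). In shControl the top 2 were the same and mt-Nd1 (89270) came next, with Atp5b (6776) again first among nuclear members.

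Each member was tested by limma on log2(normalized count + 1), in a fit over all genes that reached 10 normalized counts in 3 or more libraries, with Benjamini-Hochberg adjustment over all of them. The added 1 makes changes of weakly expressed genes look smaller than they are. A gene was called at an adjusted p under 0.05. In the knockdown 93 members were tested and 10 were called, 3 higher and 7 lower, where 14.7% of all 11485 genes tested were called, 7.5% higher and 7.17% lower. Of the mtDNA genes 7 of 13 were called, and of the nuclear members 3 of 80 tested. These 3 were Atp5g3, Uqcrq and Cox7a1, the last of which reached the filter through the shControl libraries alone. The share called was thus 53.8% in the mtDNA and 3.75% in the nucleus, but no mtDNA call held in every fit with 1 library left out. The median log2 change was -0.13 for mtDNA genes and -0.06 for nuclear members, beside -0.0036 for all genes tested.

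Within the mtDNA the knockdown went in both directions. The genes called higher were mt-Nd3 (log2 change 0.69, SE 0.18, adjusted p = 0.0387), mt-Atp6 (0.34, SE 0.08, adjusted p = 0.0241) and mt-Atp8 (0.25, SE 0.07, adjusted p = 0.0469). Those called lower were mt-Nd6 (-0.43, SE 0.08, adjusted p = 0.0113), mt-Nd4l (-0.36, SE 0.07, adjusted p = 0.0152), mt-Co1 (-0.33, SE 0.07, adjusted p = 0.0187) and mt-Nd4 (-0.26, SE 0.07, adjusted p = 0.0485). Both complex V genes of the mtDNA thus rose, and of its 7 complex I genes 3 fell and 1 rose. The 1 that rose was mt-Nd3, whose reads past the mismatch cannot be told apart from those of its nuclear copy. The calls are not all separate. The genes mt-Atp8 and mt-Atp6 lie on the same mRNA, and mt-Nd4l (9877 to 10173) and mt-Nd4 (10167 to 11544) overlap on the mtDNA. mt-Co1 had 96566, 101167 and 87438 normalized counts in shControl and 72071, 80256 and 75029 in shPrmt1 libraries, and the groups did not overlap. mt-Atp6 had 99946, 95274 and 91429 in shControl and 109021, 132807 and 120840 in shPrmt1 libraries. With copies added, mt-Nd3 remained called (log2 change 0.61, adjusted p = 0.00566) and mt-Nd4 was not (-0.25, adjusted p = 0.0801). With every library scaled to the same total, 10 were called as before, but 5 higher and 5 lower. With 1 library left out, 1 to 14 members were called, 1 without shControl replicate 1, 3 without shControl replicate 2 or shPrmt1 replicate 3, and 4 without shControl replicate 3. Of the mtDNA calls, that of mt-Nd6 held in 5 of 6 such fits and those of mt-Nd3 and mt-Nd4l in 3. The calls of mt-Atp6, mt-Atp8 and mt-Co1 held in 2 and that of mt-Nd4 in 1.

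The makeup of the mitochondrial mRNA was then described, with each gene and its copies as a percentage of the sum over all 13. In the knockdown 11 of the 13 shares did not overlap between the groups, 4 higher and 7 lower in shPrmt1 cells. mt-Co1 made up 15.6%, 16.6% and 15.7% in shControl and 12.8%, 12.5% and 12.5% in shPrmt1 libraries. mt-Atp6 made up 16.2%, 15.7% and 16.4% against 19.9%, 21.2% and 20.45%. mt-Nd3 with its copy made up 2.26% ± 0.0768 (SD, n = 3) in shControl and 3.42% ± 0.304 in shPrmt1 cells. mt-Nd2 (9.29% against 9.28%) and mt-Co3 (4.91% against 4.82%) overlapped. An exact two-sided permutation test of 3 against 3 libraries can give no p below 0.1, so no such share can pass 0.05. Shares of a sum also move against each other by construction. Groups without overlap were not counted over all genes, so these counts and those with the inhibitors have no reference.

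**Figure D2:**
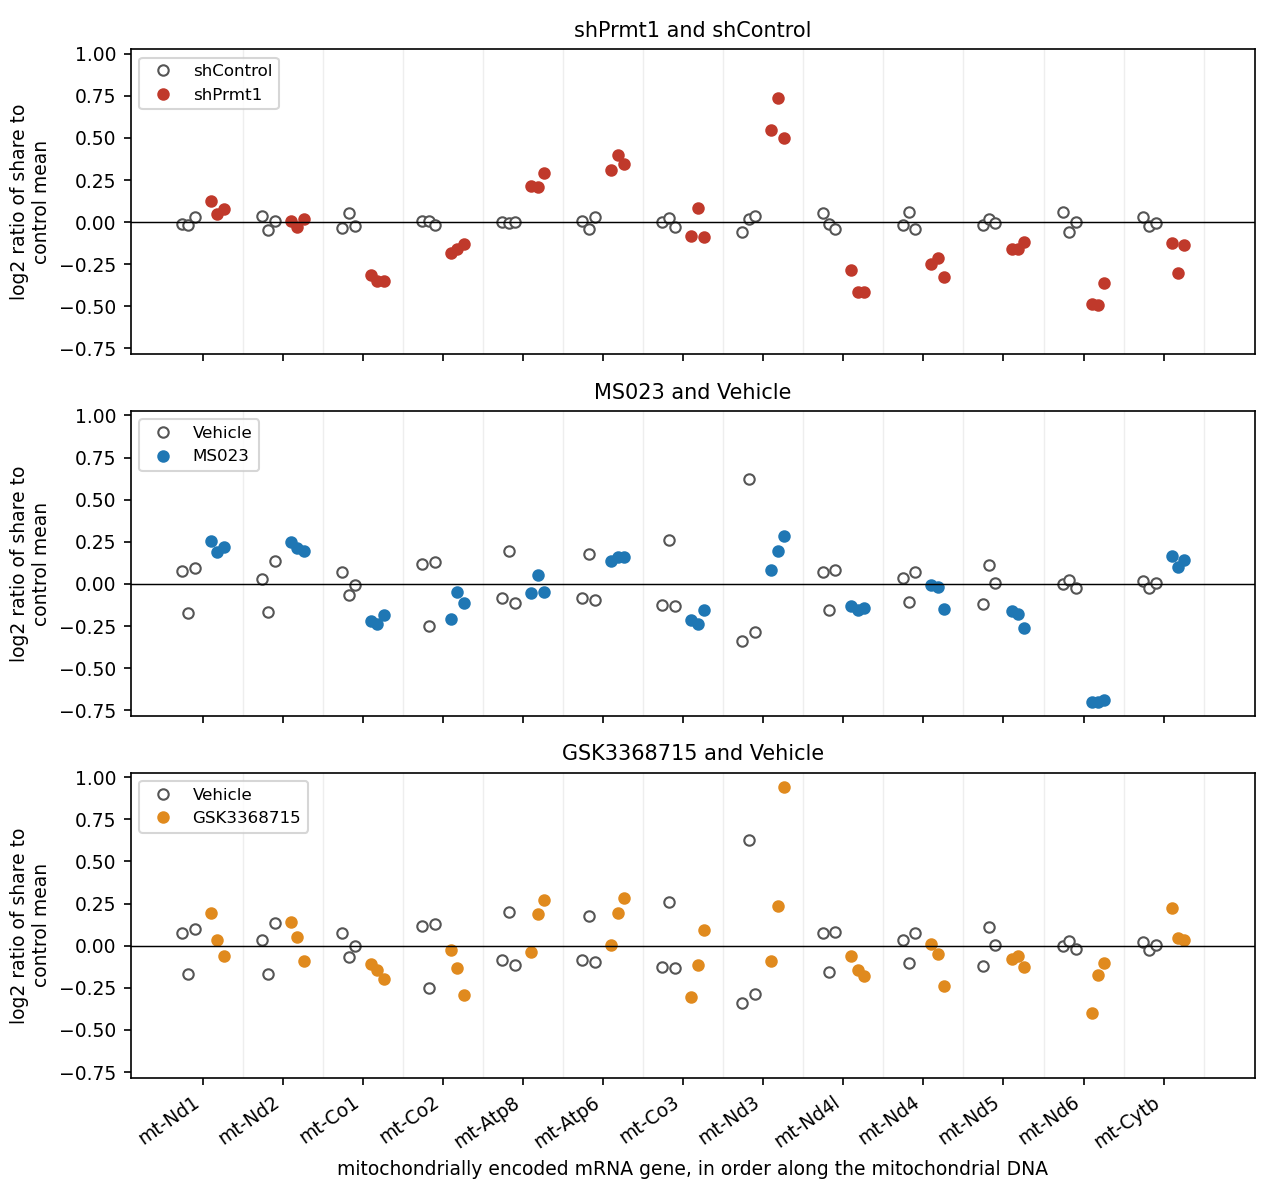
Share of each of the 13 mtDNA genes, copies included, in the sum over all 13, as the log2 ratio to the mean of its control group, with genes in their order along the mtDNA. Open points are control libraries and filled points treated libraries, 3 of each. In all 3 panels mt-Co1 and mt-Nd6 lie below the control libraries, and the spread of mt-Nd3 in vehicle and GSK3368715 comes from the 2 libraries with few mtDNA reads.

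With MS023, 7 shares did not overlap with vehicle, 3 higher and 4 lower, and with GSK3368715, 3 did not, 1 higher and 2 lower. mt-Co1 made up 21.5%, 19.5% and 20.4% in vehicle, 17.6%, 17.3% and 17.96% with MS023, and 18.9%, 18.5% and 17.8% with GSK3368715, so that both inhibitor groups lay below every vehicle library. mt-Cytb, the mtDNA subunit of complex III, made up 8.33% ± 0.128 (SD, n = 3) in vehicle and 9.15% ± 0.197 with MS023, and 10.1% ± 0.192 in shControl and 8.86% ± 0.607 in shPrmt1 cells. mt-Nd1 and mt-Nd2 took larger shares with MS023 (14.0% against 12.1%, and 8.92% against 7.70%) without overlap. The share of mt-Nd3 with its copy was 1.66%, 3.24% and 1.72% in vehicle, with the high value in the library with few mtDNA reads.

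In the 2 libraries with few mtDNA reads, Gm28438 was near its level in the others. It had 21016, 20288 and 20054 normalized counts in vehicle replicates 1 to 3, whereas mt-Co1 had 361720, 167445 and 334247. Together mt-Nd3 and Gm28438 had 27922, 27820 and 28271 in vehicle, 35112, 32614 and 31053 with MS023, and 30585, 30577 and 26867 with GSK3368715. In vehicle replicate 2 the sum thus did not fall with mt-Co1. Summed in this way mt-Nd3 was called higher with MS023 (log2 change 0.23, adjusted p = 0.0216, not fitted without the 2 libraries), which it was not on its own (0.07, adjusted p = 0.663). In the knockdown experiment the sum was 13476, 13977 and 12900 in shControl and 18585, 24115 and 19100 in shPrmt1 libraries.

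The light-strand gene mt-Nd6, a membrane subunit of complex I, was the mtDNA gene that stood lowest against its control in all 3 treated groups when set against the other mRNAs. Per 1000 normalized counts on the 12 heavy-strand mRNA genes it had 7.31, 6.75 and 7.01 in shControl and 5.07, 5.06 and 5.50 in shPrmt1 libraries, a mean of 74.2% of control. It had 6.55, 6.78 and 6.48 in vehicle, 4.06, 4.06 and 4.13 with MS023, and 4.997, 5.87 and 6.23 with GSK3368715. The MS023 mean was 61.9% and the GSK3368715 mean 86.3% of vehicle. None of the 3 treated groups overlapped with its control, and MS023 did not overlap with GSK3368715, each with an exact permutation p of 0.1, the smallest possible. The 2 libraries with few mtDNA reads did not stand apart in this ratio. The files do not give the strand of the reads, so those of mt-Nd6 and of RNA from the opposite strand cannot be told apart. Whether its poly(A) tail or its capture by the mRNA kit had a part was not tested.

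**Figure D3:**
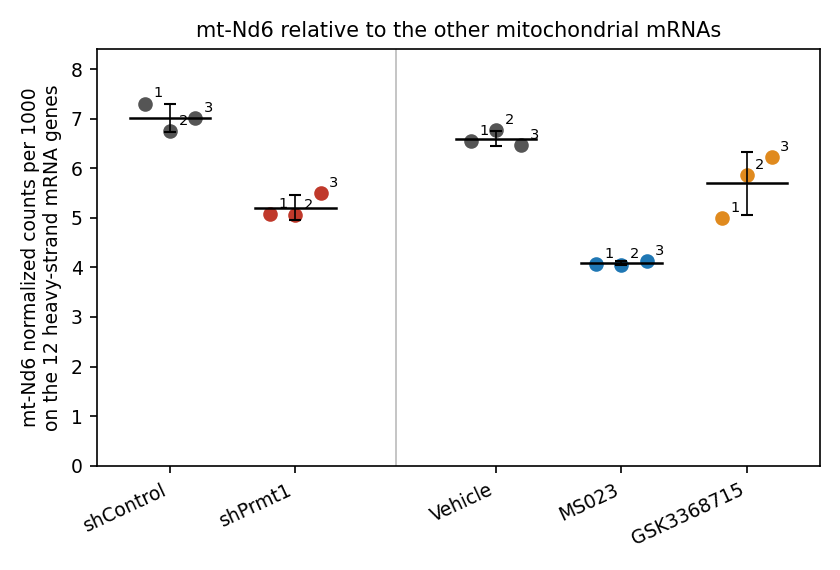
Normalized counts of mt-Nd6 per 1000 normalized counts on the 12 heavy-strand mRNA genes of the mtDNA, per library. Points are libraries numbered by replicate, lines are means and bars the SD (n = 3). MS023 libraries lie between 4.06 and 4.13, below GSK3368715 (4.997 to 6.23) and vehicle (6.48 to 6.78), and shPrmt1 (5.06 to 5.50) lies below shControl (6.75 to 7.31).

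As a level, mt-Nd6 had 10708, 5579 and 10315 normalized counts in vehicle, 6199, 5339 and 4808 with MS023 and 7501, 7019 and 3945 with GSK3368715, and vehicle replicate 2 lay within the range of both inhibitor groups. It was not called with MS023 (log2 change -0.65, SE 0.27, adjusted p = 0.0971) or GSK3368715 (-0.52, SE 0.27, adjusted p = 0.253). Without vehicle replicate 2 it was called with both, at -0.96 (adjusted p = 0.0114) and -0.83 (adjusted p = 0.0451). Without that library and GSK3368715 replicate 3 it was called at -0.96 (adjusted p = 0.000254) and -0.53 (adjusted p = 0.0197). In that last fit mt-Co1 (-0.52, adjusted p = 0.0127), mt-Co2 (-0.52, adjusted p = 0.0134), mt-Co3 (-0.35, adjusted p = 0.0228), mt-Nd4l (-0.49, adjusted p = 0.0199) and mt-Nd5 (-0.42, adjusted p = 0.0418) were also called lower with MS023. Both libraries were singled out by their low share of mtDNA reads. Calls of mtDNA genes without them thus rest on a choice made on the same values and are no independent support for a decrease.

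With all libraries, 97 members were tested in the inhibitor experiment. With MS023 14 were called, 2 higher and 12 lower, where 27.9% of all 13014 genes tested were called, 13.7% higher and 14.1% lower. All 14 were nuclear, and they were 16.7% of the 84 nuclear members tested. With GSK3368715 2 members were called, both lower, where 9.64% of genes were called, 5.16% higher and 4.47% lower. The median log2 change of nuclear members was -0.07 with MS023 and -0.02 with GSK3368715, beside 0.0028 and 0.00042 for all genes tested. Of the 84 nuclear members 60 lay below 0 with MS023, and 48 with GSK3368715. Both comparisons share the vehicle libraries.

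For the mtDNA genes the median log2 change was 0.03 with MS023 and -0.34 with GSK3368715, and both depended on single libraries. Without vehicle replicate 2 the MS023 median was -0.31 and the GSK3368715 median -0.65, without GSK3368715 replicate 3 the latter was 0.08, and without both libraries the medians were -0.31 and -0.28. Without MS023 replicate 1 or 2 the MS023 median was -0.06 or -0.01. No direction of the mtDNA median can therefore be read from the inhibitor experiment. The nuclear medians stayed between -0.11 and -0.04 with MS023, and between -0.07 and 0.00076 with GSK3368715, with each library of the contrast left out.

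**Figure D4:**
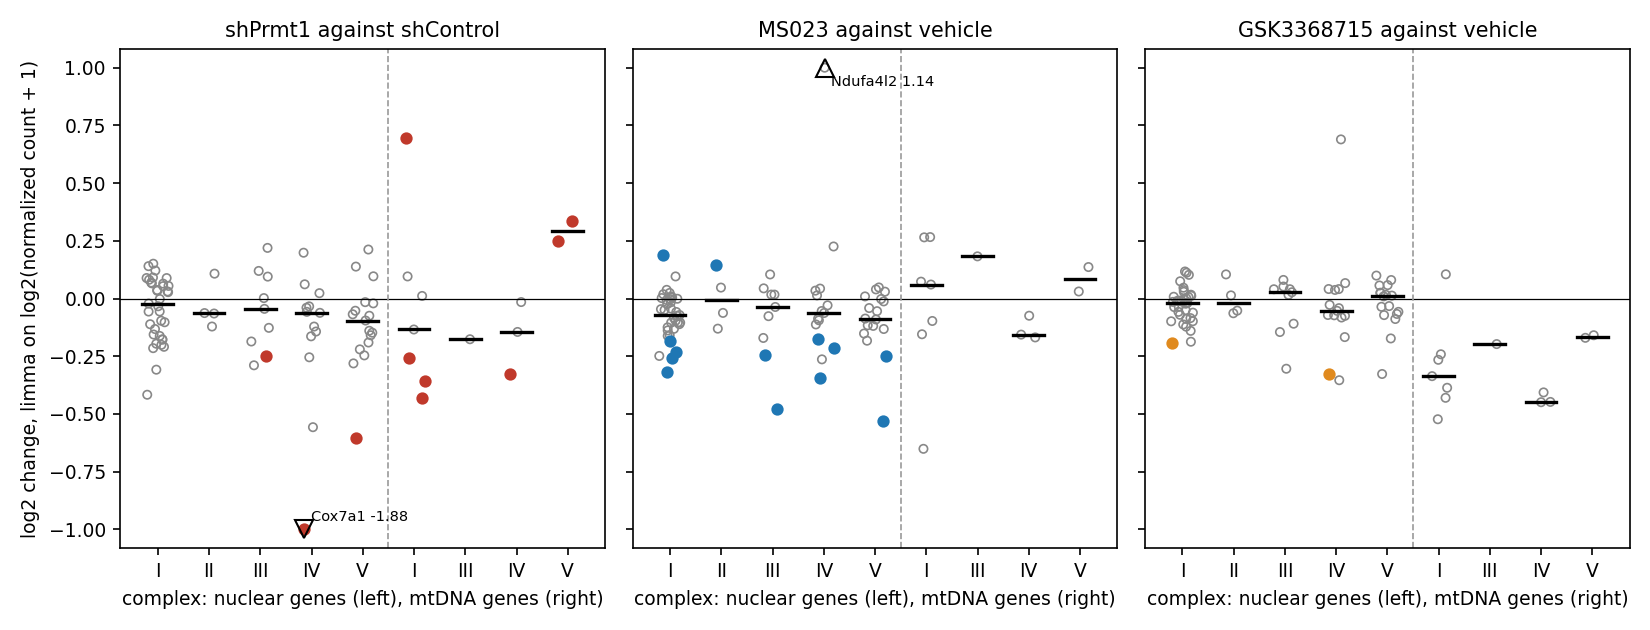
Log2 change of each member tested by limma, on log2(normalized count + 1), by complex and without the pseudogenes and the second Atp5o entry, with nuclear genes left and mtDNA genes right of the dashed line in each panel. Filled points are called, open points are not, thick lines are medians, and triangles mark the 2 genes drawn at the edge of the axis (Cox7a1, -1.88, and Ndufa4l2, 1.14). Called genes lie mostly among mtDNA genes in the knockdown and among nuclear genes with MS023. The mtDNA genes varied more between libraries in the inhibitor experiment, so their calls cannot be compared between the experiments.

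By complex, the nuclear members of complex I had a median log2 change of -0.02 in the knockdown, -0.07 with MS023 and -0.02 with GSK3368715, with 0, 5 and 1 of 35 called. For complex II the values were -0.06, -0.0074 and -0.02, with 0, 1 and 0 of 4 called. For complex III they were -0.04, -0.04 and 0.03, with 1, 2 and 0 of 9 called. For complex V they were -0.10, -0.09 and 0.0096, with 1, 2 and 0 of 17 called. In complex IV, 1 of 13 was called in the knockdown, and 3 and 1 of 15 with the inhibitors, with medians of -0.06, -0.06 and -0.05. The 1 in the knockdown was the weakly expressed Cox7a1, which reached the filter through the shControl libraries alone. Of all genes tested, 14.7% were called in the knockdown, 27.9% with MS023 and 9.64% with GSK3368715. The share called among the nuclear members of each complex lay below these values throughout. The medians of nuclear complexes lay within 0.1 of 0 on the log2 scale throughout.

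The catalytic or defining subunits were mostly not called. Of Ndufs1 and Ndufv1 (electron input of complex I), Sdha and Sdhb (complex II), Uqcrc1, Uqcrfs1 and Cyc1 (complex III), Cox4i1 and Cox5a (complex IV) and Atp5a1 and Atp5b (complex V), none was called in the knockdown, where they ran from -0.18 (Ndufs1) to 0.12 (Uqcrfs1). Ndufs1, the 75-kDa iron-sulfur subunit at the entry of electrons (chromosome 1 of mm10, 63143596 to 63176833, on the minus strand), was present at 9965, 9832 and 9847 normalized counts in vehicle, 8212, 7569 and 7987 with MS023 and 8361, 8748 and 8820 with GSK3368715. It fell with MS023 (log2 change -0.32, SE 0.05, adjusted p = 0.000995) and with GSK3368715 (-0.19, SE 0.05, adjusted p = 0.0316). The call with MS023 held in all 6 fits with 1 library left out, and that with GSK3368715 in 1 of 6, the fit without vehicle replicate 2. Sdha, the flavoprotein of succinate dehydrogenase, had 13246, 12672 and 12342 in vehicle and 14505, 13836 and 13915 with MS023, and rose (0.14, SE 0.05, adjusted p = 0.0450), a call that held in 1 of 6 such fits. The remaining 9 were not called with either inhibitor and lay between -0.13 (Sdhb with MS023) and 0.10 (Uqcrfs1 with MS023).

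Cox8a, the small subunit 8 of complex IV in its ubiquitous form (chromosome 19 of mm10, 7215153 to 7217616, on the minus strand), fell with both inhibitors. It had 9740, 8787 and 8843 normalized counts in vehicle, 6962, 7027 and 7587 with MS023 and 6994, 7108 and 7703 with GSK3368715. The log2 change was -0.34 (SE 0.06, adjusted p = 0.00258) with MS023 and -0.33 (SE 0.06, adjusted p = 0.0100) with GSK3368715, and both calls held in every fit with 1 library left out. In the knockdown it had 2976, 2758 and 2869 in shControl and 2490, 1370 and 2166 in shPrmt1 libraries. The groups did not overlap, but shPrmt1 replicate 2 was far below the other 2, and Cox8a was not called (-0.56, SE 0.19, adjusted p = 0.0838).

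Uqcrq, a small subunit of complex III (chromosome 11 of mm10, 53427922 to 53430831, on the minus strand), was the only member called in both the knockdown and MS023. It had 1231, 1262 and 1179 normalized counts in shControl and 1044, 1006 and 1040 in shPrmt1 libraries (log2 change -0.25, SE 0.07, adjusted p = 0.0391). It had 5025, 4223 and 4024 in vehicle, 3198, 2936 and 3351 with MS023 (-0.48, SE 0.09, adjusted p = 0.00250) and 3364, 3605 and 3742 with GSK3368715 (-0.30, SE 0.09, adjusted p = 0.0503, not called). Every treated library lay below every library of its control. The MS023 call held in all 6 fits with 1 library left out and the knockdown call in 1 of 6, the one without shPrmt1 replicate 2.

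**Figure D5:**
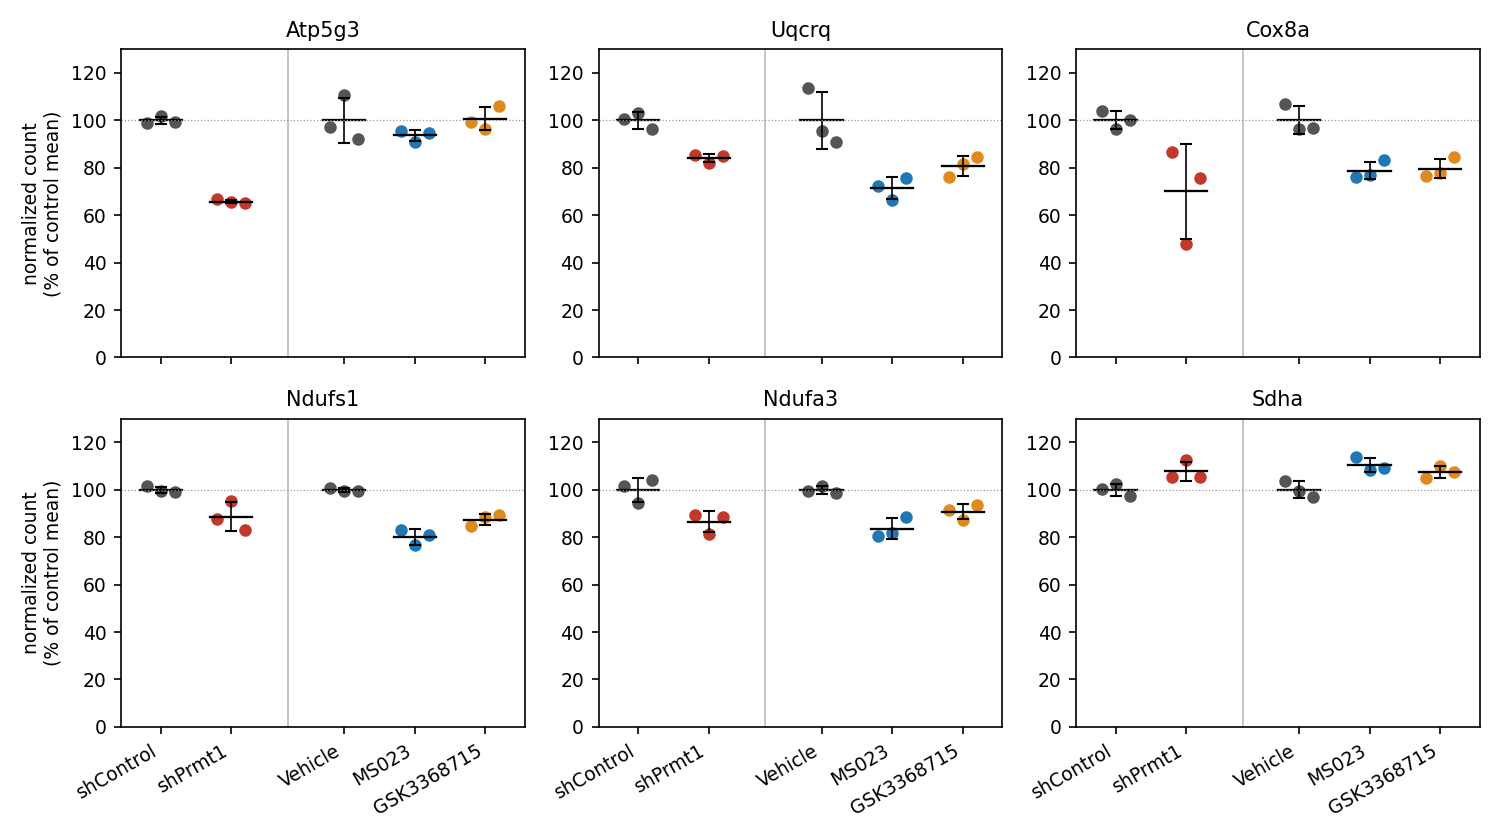
Normalized counts of 6 nuclear members in each library as a percentage of the mean of the control of the same experiment. Points are libraries, lines means and bars the SD (n = 3). Atp5g3 lies at 65.8% in shPrmt1 cells and overlaps with vehicle under both inhibitors, whereas Cox8a, Ndufs1 and Uqcrq lie below vehicle with both.

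Subunit c forms the proton-carrying ring of the ATP synthase. Its 3 genes encode the same mature protein behind different import sequences. Atp5g3 (chromosome 2 of mm10, 73908447 to 73911326, on the minus strand) was present at 6295, 6470 and 6332 normalized counts in shControl and 4247, 4161 and 4151 in shPrmt1 libraries. It fell to 65.8% of control (log2 change -0.60, SE 0.05, adjusted p = 0.000295), a call that held under all 18 alternatives tried. It had 15545, 17723 and 14782 in vehicle, 15294, 14555 and 15149 with MS023 (-0.09, adjusted p = 0.356) and 15923, 15460 and 16988 with GSK3368715 (0.01, adjusted p = 0.928), and the groups overlapped.

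Atp5g2 was called lower with MS023 (-0.53, SE 0.11, adjusted p = 0.00549). With its identical copy added, the change was -0.32 (adjusted p = 0.00616). Atp5g1 was called lower with MS023 too (-0.25, SE 0.06, adjusted p = 0.0145). In the knockdown neither Atp5g1 (-0.25, adjusted p = 0.218) nor Atp5g2 (-0.28, adjusted p = 0.283) was called. Summed over the 3 genes and their copies, subunit c had 11291, 10650 and 11314 normalized counts in shControl and 8651, 7355 and 8535 in shPrmt1 libraries, 73.8% of the control mean. The sum was 87.7% of vehicle with MS023 and 95.2% with GSK3368715, the former without overlap.

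The other members called with MS023 were accessory subunits. Those of complex I were Ndufa3 (-0.26, adjusted p = 0.00737), Ndufa13 (-0.23, adjusted p = 0.0398), Ndufa12 (-0.18, adjusted p = 0.0306) and, in the other direction, Ndufv3 (0.19, adjusted p = 0.0421). Uqcrh of complex III (-0.25, adjusted p = 0.0188) and Cox6a1 (-0.21, adjusted p = 0.0472) and Cox6b1 (-0.18, adjusted p = 0.0340) of complex IV were lower. The pseudogene Ndufb4c was called lower as well (-0.22, adjusted p = 0.0270), in 3 of 6 fits with 1 library left out. It is 100% identical to part of the transcript of the member Ndufb4 (-0.25, adjusted p = 0.0662, not called), so their reads cannot be told apart, and with both summed the change was -0.23 (adjusted p = 0.0171). Ndufa12 has a copy, Ndufa12-ps, that held 11.5% of the counts of the pair, and with it added the change was -0.17 (adjusted p = 0.0341). Of the 14 calls, those of Atp5g2, Cox8a, Ndufa3, Ndufs1 and Uqcrq held in every fit with 1 library left out. The call of Ndufa12 held in 0 of 6 such fits, and those of Ndufa13, Ndufv3 and Cox6b1 in 1. Those of Uqcrh and Cox6a1 held in 2 and that of Atp5g1 in 4. With 1 library left out the number of calls was 5 without MS023 replicate 2, 7 without MS023 replicate 3, 8 without vehicle replicate 1 or 2 or MS023 replicate 1, and 14 without vehicle replicate 3. It was 12 without both libraries with few mtDNA reads. With GSK3368715 it was 4 without vehicle replicate 2 and 1 without any of the other 5 libraries.

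Isoforms known from particular tissues were low or at 0. Cox8b and Cox8c were at 0 in all libraries, Cox6b2 and Cox7b2 reached 1.49 and 1.52 normalized counts in a single library each, and Cox4i2 stayed under 4 normalized counts. Cox6a2, the isoform of heart and skeletal muscle, ran from 2.16 to 14.3 in the knockdown experiment and from 14.9 to 56.2 in the inhibitor experiment. Cox7a1, also known from muscle, had 19.4, 19.4 and 18.8 normalized counts in shControl and 2.29, 6.06 and 6.12 in shPrmt1 libraries, and was called lower (log2 change -1.88, SE 0.42, adjusted p = 0.0210). It reached the filter through the shControl libraries alone, so its call is no independent support for a decrease and it was tested in 3 of the 6 fits with 1 library left out. With no filter its adjusted p was 0.0254. It had 84.3, 61.9 and 47.0 in vehicle and was not called with MS023 (-0.26, adjusted p = 0.464) or GSK3368715 (-0.35, adjusted p = 0.403). Ndufa4l2, known as a hypoxia-induced relative of Ndufa4, had 20.8, 11.6 and 8.43 in vehicle and 24.99, 25.2 and 39.7 with MS023, and was not called (1.14, adjusted p = 0.111).

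MS023 and GSK3368715 were compared at the same dose and time. None of the 97 members was called by limma, where 0.515% of all genes were, nor by edgeR or DESeq2. In limma 3 members had an unadjusted p under 0.05. These were Ndufs1 (MS023 minus GSK3368715 -0.13, 95% interval -0.23 to -0.02), Ndufb8 (-0.11, -0.22 to -0.0050) and Ndufb4c (-0.17, -0.31 to -0.02). The interval was -0.37 to 0.01 for Uqcrq, -0.45 to 0.04 for Atp5g2 and -0.15 to 0.12 for Cox8a on the log2 scale. For mt-Co1 it ran from -0.45 to 1.01 and for mt-Nd6 from -0.73 to 0.47, so that differences of that size were not detectable. Without the 2 libraries with few mtDNA reads the difference was -0.10 for mt-Co1 (adjusted p = 0.801) and -0.42 for mt-Nd6 (adjusted p = 0.109). Of the 84 nuclear members 67 were lower with MS023 than with GSK3368715, with a median of -0.05 beside -0.0046 for all genes tested.

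Promoters were available from RefSeq (GRCm38.p6) for 68 of the 86 nuclear protein-coding members, from 250 bases before to 50 after the start of the gene. Short cores of motifs known for nuclear genes of respiration were searched on both strands. GCATGCGC, of nuclear respiratory factor 1 (NRF1), occurred in 10 promoters, 14.7% of the 68, and in 2.80% of all 27025 promoters. CCGGAAG, of ETS factors such as GABP, occurred in 23.5% and 9.12%. AAGATGGCG, of YY1, occurred in 8.82% and 1.49%. Shown are Cox8a, called with both inhibitors, with 2 ETS cores, and Atp5g3, called in the knockdown, with no match. Shown too is Atp5g2, called with MS023, where 1 palindromic stretch matches the NRF1 core on both strands and so counts as 2 overlapping cores. Atp5g1, also called with MS023, and most other called members with a promoter had no match. Capitals mark the matches. Sequences run 5′ to 3′ on the minus strand from chr19:7217567-7217866 (Cox8a), chr15:102670998-102671297 (Atp5g2) and chr2:73911277-73911576 (Atp5g3). A match is a description of the letters and not of binding.
Cox8a: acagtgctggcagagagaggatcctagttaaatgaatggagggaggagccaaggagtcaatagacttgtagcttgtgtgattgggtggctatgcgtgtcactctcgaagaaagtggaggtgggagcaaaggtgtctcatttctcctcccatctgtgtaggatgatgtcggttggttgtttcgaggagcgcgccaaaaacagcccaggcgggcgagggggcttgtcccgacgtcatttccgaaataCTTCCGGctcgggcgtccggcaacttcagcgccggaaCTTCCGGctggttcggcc
Atp5g2: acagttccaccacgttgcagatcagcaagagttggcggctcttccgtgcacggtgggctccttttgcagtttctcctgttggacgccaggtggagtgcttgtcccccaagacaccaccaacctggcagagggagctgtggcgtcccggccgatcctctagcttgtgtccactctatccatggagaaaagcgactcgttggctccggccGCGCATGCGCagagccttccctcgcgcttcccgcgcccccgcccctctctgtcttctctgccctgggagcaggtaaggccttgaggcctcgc
Atp5g3: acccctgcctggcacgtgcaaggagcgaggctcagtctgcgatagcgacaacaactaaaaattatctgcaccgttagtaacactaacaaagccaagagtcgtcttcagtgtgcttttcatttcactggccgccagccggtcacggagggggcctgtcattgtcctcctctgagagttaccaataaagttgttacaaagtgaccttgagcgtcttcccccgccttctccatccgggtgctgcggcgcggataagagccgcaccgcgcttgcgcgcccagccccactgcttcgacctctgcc

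Genes that build or serve the complexes were given by lists. Of 52 assembly factors tested, 5 were called lower and 0 higher in the knockdown, 14 lower and 3 higher with MS023, and 4 lower and 0 higher with GSK3368715. The shares called were 9.62%, 32.7% and 7.69%, beside 14.7%, 27.9% and 9.64% of all genes. Their medians were -0.08, -0.12 and -0.06. Among those called, the largest decreases in the knockdown were Cox15, which makes heme A for complex IV (44.5% of control, log2 change -1.17, adjusted p = 5.4e-05), and Cmc2, a complex IV factor (-0.55, adjusted p = 0.0248). With MS023 they were Sdhaf1, which helps to insert iron-sulfur clusters in complex II (-0.73, adjusted p = 0.000355), and Cox18, which inserts a complex IV subunit into the membrane (-0.72, adjusted p = 0.000252). The largest increases with MS023 were Ndufaf8 (0.33, adjusted p = 0.0464) and Ndufaf7 (0.26, adjusted p = 0.00666), both of complex I. With GSK3368715 the decreases were led by Sdhaf1 (-0.55, adjusted p = 0.00597) and Cox14 (-0.33, adjusted p = 0.0161). Of the 22 factors for complex IV, 4, 8 and 3 were called lower in the 3 comparisons, and none higher.

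Of 29 genes for the upkeep and expression of mtDNA, 1 was called in the knockdown, 10 with MS023 (9 lower) and 2 with GSK3368715 (both lower). The shares called were 3.45%, 34.5% and 6.90%, beside 14.7%, 27.9% and 9.64% of all genes. In the knockdown the gene called was Twnk, the mtDNA helicase (-0.32, adjusted p = 0.0186). With MS023 the largest decreases were Tfb1m, a methyltransferase of mitochondrial rRNA (-0.64, adjusted p = 0.000905), and Fastkd1 (-0.61, adjusted p = 0.000231), and the increase was Fastkd3 (0.28, adjusted p = 0.0250), the latter 2 of a family that acts on mitochondrial RNA. With GSK3368715 Fastkd1 (-0.29, adjusted p = 0.0257) and Lrpprc, which stabilizes mitochondrial mRNA (-0.22, adjusted p = 0.0166), were lower. Of 11 nuclear regulators tested, Creb1 rose (0.37, adjusted p = 0.0224) and Gabpb2 fell (-0.28, adjusted p = 0.0136) in the knockdown. With MS023 the coactivator Ppargc1a (0.39, adjusted p = 0.0155) and Yy1 (0.26, adjusted p = 0.0145) rose and Gabpb2 fell (-0.22, adjusted p = 0.00507), and with GSK3368715 Gabpb2 fell (-0.18, adjusted p = 0.0302).

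Among electron carriers and genes of coenzyme Q, Sqor, which passes electrons from sulfide to coenzyme Q, rose in all 3 comparisons. It had 325% of control in shPrmt1 cells (log2 change 1.70, adjusted p = 5.6e-05), 175% of vehicle with MS023 (0.81, adjusted p = 0.000312) and 138% with GSK3368715 (0.47, adjusted p = 0.0161). Coq3 rose in the knockdown (0.56, adjusted p = 0.0165). Coq2, an early enzyme of coenzyme Q synthesis, fell with MS023 (-0.72, adjusted p = 0.000246) and GSK3368715 (-0.31, adjusted p = 0.0428). Etfb, of the electron-transferring flavoprotein, fell with MS023 (-0.43, adjusted p = 0.000308), and Coq10b with GSK3368715 (-0.29, adjusted p = 0.0174). In this list 2 of 21 genes tested were called in the knockdown, 5 of 22 with MS023 and 4 of 22 with GSK3368715, or 9.52%, 22.7% and 18.2% beside 14.7%, 27.9% and 9.64% of all genes. For the regulators the shares were 18.2%, 27.3% and 9.09%. Of the calls named from these lists, 2 of 7 in the knockdown (Cox15 and Sqor), 10 of 13 with MS023 and 1 of 8 with GSK3368715 (Sdhaf1) held in every fit with 1 library left out. Those of Coq2 and Gabpb2 with GSK3368715 and of Fastkd3 and Ndufaf8 with MS023 held in 1 of 6.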

How the data were processed

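RNA-seq was done on 15 libraries in 2 experiments, a knockdown (shControl and shPrmt1) and an inhibitor experiment (vehicle, MS023 and GSK3368715), with 3 libraries in each group. The authors quantified reads with Salmon 1.4.0 and deposited a signal per gene, the count divided by the DESeq2 size factor of the library. Genome mm10 is named in the labels. Dividing out the size factors recovered whole reads (within 0.1) for 100% of values. The deposited tables of the authors' own comparisons were not used.

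Members were taken by symbol, and near-identical copies were sought with BLAST 2.17.0 (at least 95% identity over at least 30% of a transcript). Genes reaching 10 normalized counts in 3 or more libraries were tested with limma 3.58.1 (R 4.3.3) on log2(value + 1), with a trend, moderated over genes and adjusted over all genes. The knockdown and the 9 inhibitor libraries were fitted separately. The fits were tested on simulated data. Single values such as shares were tested with exact two-sided permutation tests (Python 3.11.15, scipy 1.17.1). edgeR 4.0.16 and DESeq2 1.42.0 on the recovered reads, other pseudocounts, filters and scalings, a replicate block and leaving out each library were tried as alternatives, and leaving out both libraries low in mtDNA reads was added after the data were seen.

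Members and lists were chosen with earlier results of these data known. Named in the text are all mtDNA members, 11 defining subunits (1 more is not reported here), tissue isoforms, the members called with the largest changes in each direction, and from each list the 2 largest changes in each direction among those called. Other members called with MS023 were named after their values were seen. Replicate numbers were not taken to pair libraries. No 2 libraries agreed within sampling noise.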

Additional observations from a re-analysis of the deposited data

Results flagged for a closer look

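Of the genes described, 2 complex IV assembly factors differed between MS023 and GSK3368715 by limma's test of the difference itself, with adjustment over all genes. The log2 difference, MS023 minus GSK3368715, was -0.34 for Cox15 (adjusted p = 0.0487) and -0.46 for Cox18 (adjusted p = 0.0429). Against vehicle, Cox15 was at -0.53 with MS023 and -0.20 with GSK3368715 (adjusted p = 0.0753, not called), and Cox18 at -0.72 and -0.25 (adjusted p = 0.0836, not called). Both differences were called under 7 of 20 alternatives and under none of the 6 that left out 1 library.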

How the results depend on the processing

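Of the alternatives tried, none reversed the direction of a called gene. In the knockdown the 10 calls among members became 5 without the filter on low counts, 4 without the trend and 15 with DESeq2 on the recovered reads (edgeR gave 11), and 1 to 14 with 1 library left out. The 14 calls with MS023 became 9 without the filter, 9 with equal totals, 9 with equal totals outside the mtDNA genes and 9 when only the groups compared were fitted, and 5 to 14 with 1 library left out. The 2 calls with GSK3368715 became 1 without the trend, 1 with only the groups compared and 4 with DESeq2, and 1 to 4 with 1 library left out. The cause was not tested. The comparison of MS023 with GSK3368715 gave 0 member calls under every alternative. The nuclear median with GSK3368715 ran from -0.070 (without vehicle replicate 3) to 0.00076. Called under every alternative were Atp5g3 in the knockdown, Atp5g2, Cox8a, Ndufa3, Ndufs1 and Uqcrq with MS023, and Cox8a with GSK3368715. Cox7a1, which could be tested in 14 of 18 alternatives, was called in those 14. It reached the filter of the main fit through the shControl libraries alone, so this count is no independent support for a decrease.

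In the knockdown same-numbered libraries correlated at 0.061 to 0.116, all above the -0.094 to 0.033 of libraries with different numbers. In the inhibitor experiment the ranges were -0.10 to 0.11 and -0.13 to 0.17. The labels name no pairs and the numbers were not taken as pairs, but the knockdown libraries may have been paired. With a replicate block 18 members were called in the knockdown (6 higher and 12 lower), 10 with MS023, 1 with GSK3368715 and 0 between the inhibitors.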
